A study of Mus musculus with 20 samples.

Results

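The genes described here are the ion and metal solute carriers, taken as every gene whose symbol begins with Slc4a, Slc8a, Slc9a, Slc12a, Slc20a, Slc24a, Slc30a, Slc39a or Slc41a. The rule found 68 of the 24059 genes in the count tables. It reads the symbol alone, so it also took in 3 genes whose products are not carriers: Slc4a1ap, Slc9a3r1 and Slc9a3r2. The last pair encode scaffold proteins that bind sodium-hydrogen exchangers. Of the 68 genes, 55 held enough reads to be tested, 52 of them carriers. The other 13 (Slc4a5, Slc4a9, Slc4a10, Slc9a4, Slc12a1, Slc12a3, Slc24a4, Slc30a3, Slc30a8, Slc30a10, Slc39a4, Slc39a5 and Slc39a12) reached at most 13 reads in a library and at most 127 reads over all 20, and were not tested.

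RNA was taken from the left ventricular free wall of male C57BL/6 mice of about 9 to 13 weeks, in 4 groups of 5 libraries. Both genotypes carry floxed alleles of Nr3c1, the glucocorticoid receptor gene (GRfl/fl). CardioGRKO mice also carry 1 copy of a Cre transgene (alphaMHCCre/+), whose alpha myosin heavy chain promoter directs it to heart muscle cells. Their GRflox littermates lack Cre, so loss of the receptor and presence of Cre cannot be told apart. Each genotype was sampled at ZT0, when lights went on, and at ZT12, when lights went off, and the series asks about transcriptional rhythms in the heart. The labels name no drug or hormone treatment. The labels number the libraries 1 to 5 in each group but tie no number to a named animal, so p-values measure the spread between these libraries. The wall was sequenced in bulk, so fewer cells of a type and less RNA per cell cannot be told apart.

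Ion carriers of these families move an ion across a membrane by coupling it to another ion or to a gradient that the sodium pump maintains. In heart muscle, sodium-calcium exchange removes the calcium that entered for contraction, while sodium-hydrogen, anion and bicarbonate exchange set the pH of the cell. Potassium-chloride cotransport sets cell chloride and volume, and the zinc carriers work in opposite directions, with Slc30 proteins moving zinc out of the cytosol and Slc39 proteins moving it in.

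Libraries held 5854462 to 37648421 counted reads, with a median of 23223656. The shallowest, replicate 1 of CardioGRKO at ZT0, is the only one whose deposited file carries another number, and on the first principal component (24.4% of the variance) it lay at 34.5 while the rest of its group lay between 15.8 and 19.0. Nr3c1, the targeted gene, measured 106 to 122 CPM (the usual library-size scale for counts, here also scaled for library composition) in GRflox at ZT0 and 51.9 to 61.1 in CardioGRKO. At ZT12 the corresponding ranges of Nr3c1 were 95.3 to 117 and 46.7 to 55.9, and the groups did not overlap at either time. Its log2 difference, CardioGRKO minus GRflox, was -1.06 ± 0.06 (SE) at ZT0 and -1.08 ± 0.06 at ZT12 (adjusted p = 2.04e-11 and 5.17e-12, quasi-likelihood test of edgeR, adjusted by Benjamini-Hochberg over 14007 genes). All later differences are log2 fold changes with their standard error and adjusted p from that fit, and a gene is called where its adjusted p was under 0.05. The marker genes of heart muscle were abundant in every library: the 11 listed cardiomyocyte markers summed at ZT0 to 123741 to 130265 CPM in GRflox and 109639 to 120437 CPM in CardioGRKO. At ZT12 they summed to 130086 to 134725 and 107919 to 124518 CPM.

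Between genotypes, 13 of the 55 tested genes were called at ZT0, 8 higher and 5 lower in CardioGRKO, which is 23.6% beside 14.7% of all genes tested (7.36% higher and 7.35% lower). At ZT12 again 13 were called, 9 higher and 4 lower, also 23.6%, beside 21.1% of all genes (10.4% higher and 10.7% lower). Called at both times in 1 direction were 10 genes, 7 higher (Slc9a3, Slc9a2, Slc8a2, Slc4a2, Slc12a4, Slc12a7 and Slc39a13) and 3 lower (Slc8a1, Slc4a3 and Slc39a14), which is 18.2% beside 10.8% of all genes, and none was called in opposite directions. The 2 genotype contrasts use separate libraries but were fitted together. Most calls were small: 9 of 13 at each time were under 1.5-fold, and a difference of at least 2-fold was called for Slc9a3 alone at ZT0 and for Slc9a3 and Slc8a3 at ZT12. The median log2 difference over the 55 genes was 0.01 at both times, beside -0.01 and 0.00 over all genes.

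Between times, 10 of the 55 genes were called in GRflox, 5 higher and 5 lower at ZT12, which is 18.2% beside 17.3% of all genes (8.13% higher and 9.17% lower). The count was 5 without GRflox replicate 2 at ZT0, 6 without GRflox replicate 4 at ZT12, and 6 when every library was thinned to the shallowest total. In CardioGRKO 9 were called, 4 higher and 5 lower, which is 16.4% beside 9.17% of all genes (4.42% higher and 4.75% lower). The same 8 genes were called in 1 direction in both genotypes (14.5%, beside 6.83% of all genes). Among them Slc4a8, Slc9a3r2, Slc12a4 and Slc30a1 were higher at ZT12, and Slc12a7, Slc39a10 and Slc41a3 lower. In all, 22 genes were called in at least 1 of the 4 contrasts and 33 in none. Contrasts of genotype and of time share libraries, so the values of both kinds are given side by side below and neither supports the other.

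**Figure D1:**
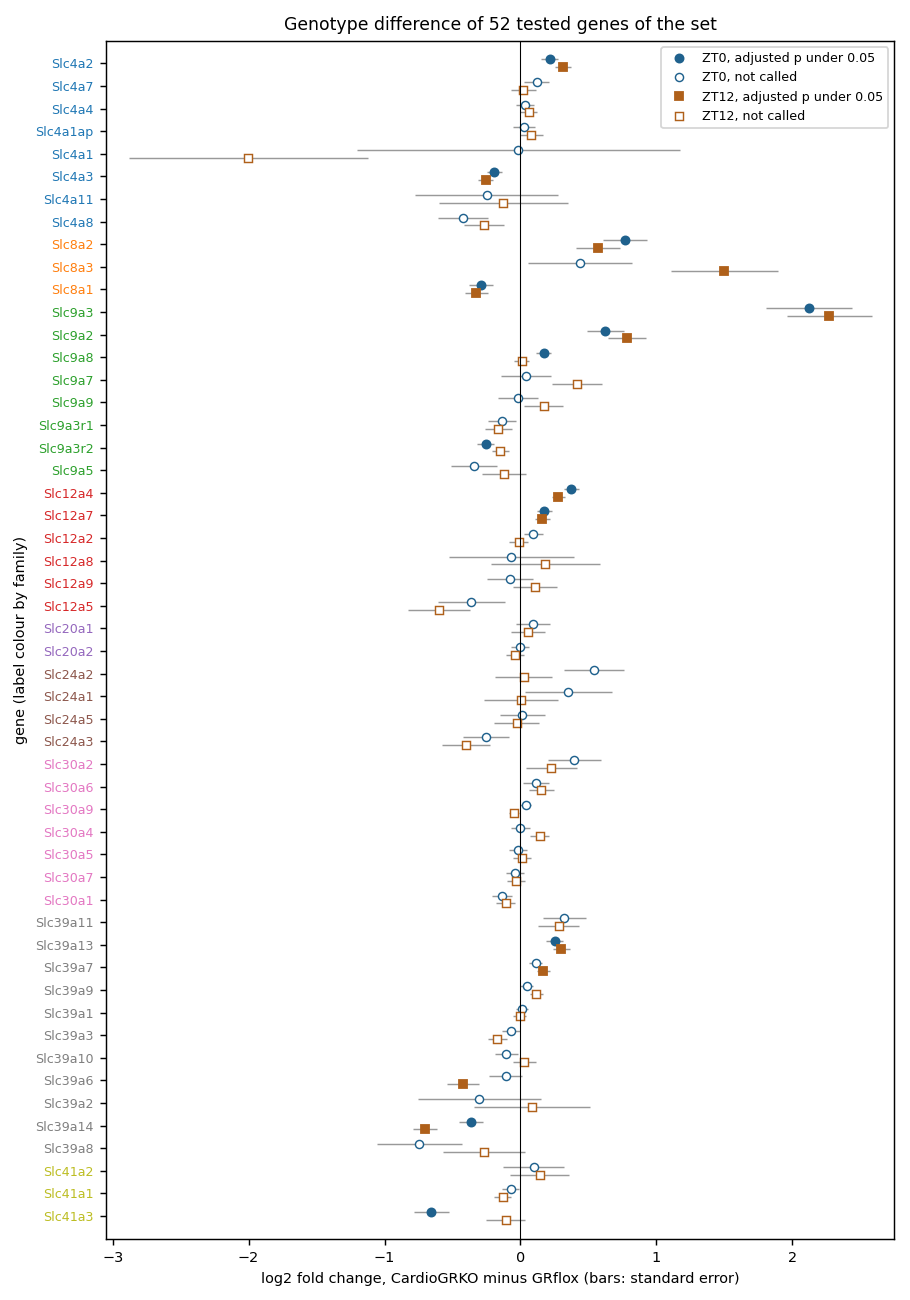
Log2 fold change between CardioGRKO and GRflox of 52 of the 55 tested genes, circles for ZT0 and squares for ZT12, with bars of 1 standard error and filled symbols for an adjusted p under 0.05; genes are grouped by family (label colour). Slc9a3 lies farthest to the right at both times, at 2.12 and 2.27, and the open square of Slc4a1 at -2.0 rests on 1 GRflox library.

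How the carrier genes rank in this tissue was read from CPM divided by the exon length of the gene in kilobases (RPKM), a scale that allows levels of different genes to be compared. On it 10 of the 68 genes reached 10 RPKM, 25 lay from 1 to under 10 and 33 under 1. Highest were the scaffold gene Slc9a3r2 (56.7 RPKM as a mean of 20 libraries), the phosphate carrier Slc20a2 (38.9), the zinc importer Slc39a1 (32.9), the potassium-chloride cotransporter Slc12a7 (31.8) and the sodium-calcium exchanger Slc8a1 (30.5). They were followed by the anion exchanger Slc4a3 (28.7 RPKM), the zinc carrier Slc39a7 (27.0), the magnesium carrier Slc41a1 (26.4), Slc12a4 (24.2) and Slc41a3 (16.6). Neighbours in this order lay close together: over the 20 libraries Slc12a7 ranged from 25.7 to 37.5 RPKM, Slc8a1 from 22.4 to 36.7 and Slc4a3 from 23.9 to 34.0, so their ranges overlapped. Slc41a3 had the widest relative range of these leading genes, 5.19 to 37.3 RPKM.

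In some families 1 gene held nearly all of the level. Slc8a1 made up 98.1% of the RPKM of the 3 sodium-calcium exchangers, and Slc20a2 made up 91.4% of that of both phosphate carriers. Slc4a3 accounted for 73.5% of the Slc4 carriers and Slc41a1 for 61.1% of the magnesium carriers. The zinc importers were spread more evenly, with Slc39a1 at 36.0% of their family, and so were the zinc exporters, with Slc30a9 at 36.8%. Slc9a3, the gene with the largest genotype difference, was at only 0.603 RPKM.

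**Figure D2:**
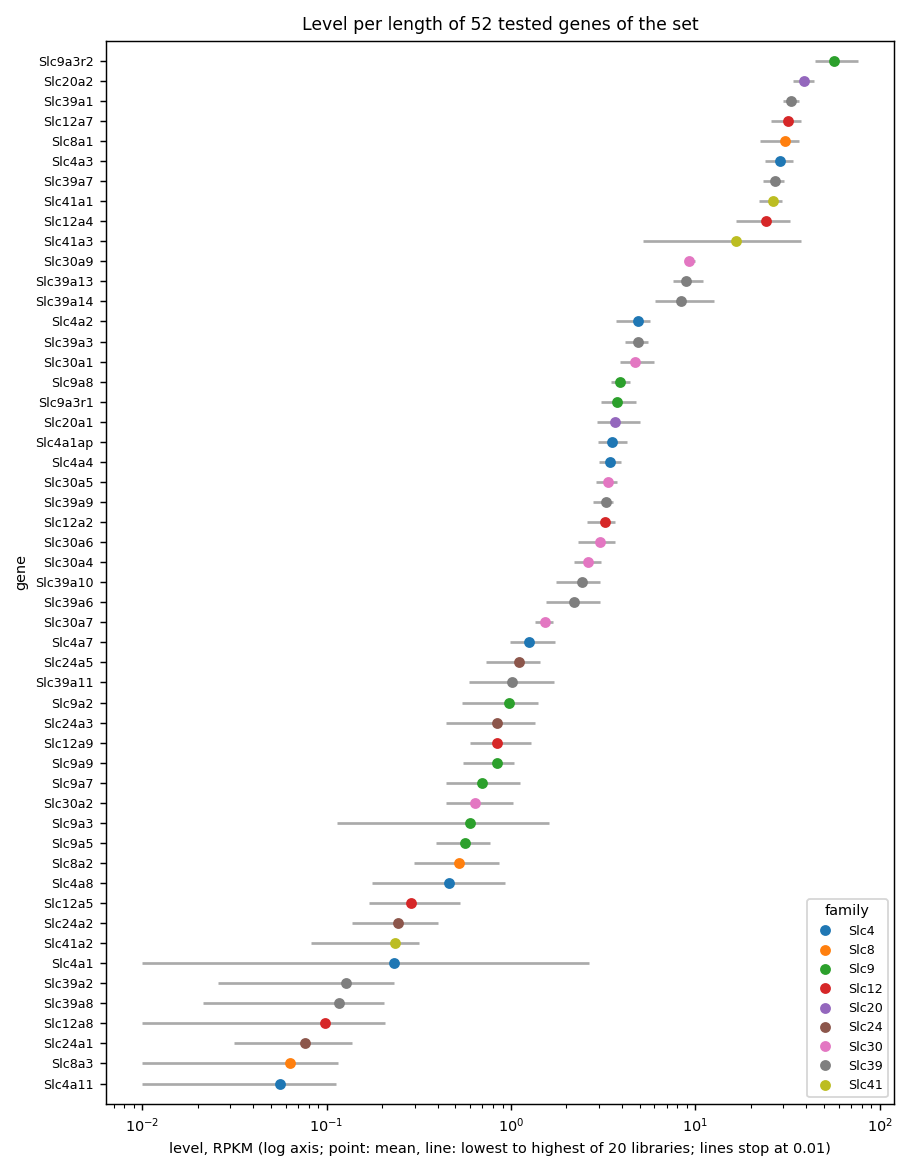
Level of 52 of the 55 tested genes in RPKM on a log axis, with a point for the mean of the 20 libraries coloured by family and a line from the lowest to the highest library. Slc9a3r2 and Slc20a2 stand at the top, at 56.7 and 38.9 RPKM, and Slc41a3 has a long line, from 5.19 to 37.3 RPKM.

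Sodium-hydrogen exchangers trade a proton of the cell for a sodium ion outside. Slc9a3 encodes NHE3, the exchanger of the apical membrane of kidney and gut epithelium, where glucocorticoids are known to raise it. Slc9a3 (Entrez 105243, mm10 chr13:74086255-74169442) was the carrier gene with the largest genotype difference here, and it was higher in CardioGRKO at both times. The stretch of 250 bases before its RefSeq transcript start (GRCm38.p6, chr13:74121163-74121412, plus strand, inside the annotated span of the gene) is shown because no other carrier gene differed as much between genotypes. Below it is the matching stretch for Slc12a4 (chr8:105966116-105966365, minus strand), the gene with the smallest adjusted p between genotypes at ZT0. Capitals mark the E-box CACGTG, which reads the same on both strands and is the sequence that clock factors are known to bind.
Slc9a3: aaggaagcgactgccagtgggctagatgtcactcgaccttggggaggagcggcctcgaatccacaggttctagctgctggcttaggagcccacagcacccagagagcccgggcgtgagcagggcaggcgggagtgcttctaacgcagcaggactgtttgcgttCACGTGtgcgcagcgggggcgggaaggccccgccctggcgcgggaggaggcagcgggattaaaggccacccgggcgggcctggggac
Slc12a4: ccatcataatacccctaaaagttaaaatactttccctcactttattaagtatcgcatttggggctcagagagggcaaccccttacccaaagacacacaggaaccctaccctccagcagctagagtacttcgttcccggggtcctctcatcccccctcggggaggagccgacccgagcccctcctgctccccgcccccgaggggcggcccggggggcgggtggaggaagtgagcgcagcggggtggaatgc
The E-box of Slc9a3 begins 87 bases before the start. Bases shortly after that start were not found in a GENCODE transcript of Slc9a3, while those of Slc12a4 were found in one of its own. The glucocorticoid receptor half-site AGAACA, searched on both strands, was in neither stretch. Of 32851 mouse promoters searched the same way, 6.02% hold CACGTG and 16.1% hold AGAACA. A match of letters is a description and not a binding site.

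Slc9a3 measured 0.917, 0.832, 1.47, 1.07 and 1.5 CPM in the 5 GRflox libraries at ZT0 and 8.89, 7.16, 2.58, 3.82 and 4.87 CPM in CardioGRKO. At ZT12 Slc9a3 measured 1.01, 0.628, 1.5, 1.17 and 1.44 CPM in GRflox and 4.65, 4.28, 7.78, 7.65 and 3.21 CPM in CardioGRKO. Every CardioGRKO library thus lay above every GRflox library at both times, and the CardioGRKO libraries were also spread more widely among themselves. Means were 1.16 ± 0.309 and 5.46 ± 2.55 CPM (SD, n = 5) at ZT0 and 1.15 ± 0.353 and 5.51 ± 2.08 CPM at ZT12. Those values rest on 15 to 47 reads per GRflox library and 54 to 273 per CardioGRKO library at ZT0, and on 15 to 51 and 53 to 229 at ZT12. The difference was 2.12 ± 0.32 at ZT0, or 4.35-fold (adjusted p = 4.44e-05, edgeR), and 2.27 ± 0.31 at ZT12, or 4.84-fold (adjusted p = 9.13e-06). Time made little difference to it, -0.04 ± 0.37 in GRflox and 0.11 ± 0.27 in CardioGRKO, neither called.

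Some listed markers of epithelium were called in the direction of Slc9a3. Of the 8 listed mesothelial and epithelial markers 6 were tested, with none called lower at either time. Krt18 was called higher in CardioGRKO at ZT0 (1.71 ± 0.42) and Krt18 and Krt8 at ZT12 (2.85 ± 0.42 and 2.31 ± 0.48). Of all genes, 7.36% and 10.4% were called higher. The median difference of the 6 was -0.22 at ZT0, opposite in sign to Slc9a3, and 0.63 at ZT12. The sum of the list at ZT0 was 8.32 to 17 CPM in GRflox and 6.02 to 11.5 CPM in CardioGRKO, and 6.49 to 12.1 and 5.37 to 13.8 CPM at ZT12. No marker of the list was at 0 in all libraries. Mean Msln was 0.767 and 0.424 CPM in GRflox and CardioGRKO at ZT0 and 0.459 and 0.765 CPM at ZT12. The part of such cells in the Slc9a3 difference was not tested.

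Slc9a2, which encodes a second epithelial exchanger, measured 5.91, 6.07, 4.26, 6.00 and 7.10 CPM in GRflox at ZT0 and 9.06, 8.20, 9.13, 9.24 and 9.82 CPM in CardioGRKO. At ZT12 Slc9a2 measured 4.48, 4.48, 3.77, 3.90 and 6.27 CPM in GRflox and 8.95, 9.06, 7.47, 7.15 and 6.18 CPM in CardioGRKO. CardioGRKO was higher at both times, without overlap at ZT0, while at ZT12 GRflox replicate 5 reached above the lowest CardioGRKO library. The difference was 0.62 ± 0.14 at ZT0 (adjusted p = 0.00252, edgeR) and 0.79 ± 0.14 at ZT12 (adjusted p = 1.89e-04).

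The other sodium-hydrogen exchangers changed less. Slc9a8, an exchanger of the Golgi and endosomes, was higher in CardioGRKO by 0.17 ± 0.05 at ZT0 (adjusted p = 0.0361, edgeR) and 0.01 at ZT12 (adjusted p = 0.941). Its ZT0 call was lost without any 1 of GRflox replicates 2, 3, 4 and 5 or CardioGRKO replicates 1, 3 and 4, with adjusted p from 0.0543 to 0.0781, and without the filter on low counts (0.0518). No other tested sodium-hydrogen exchanger, apart from Slc9a3 and Slc9a2 above, was called in any of the 4 contrasts.

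Slc9a3r2 encodes NHERF2, a scaffold through which NHE3 is held and regulated in epithelia. It measured 155, 153, 146, 156 and 140.1 CPM in GRflox at ZT0 and 128, 119, 131, 132 and 118 CPM in CardioGRKO. At ZT12 Slc9a3r2 measured 158, 172, 202, 171 and 149 CPM in GRflox and 154, 155, 166, 143 and 152 CPM in CardioGRKO. The CardioGRKO libraries at ZT0 lay below all 15 others. Slc9a3r2 was lower in CardioGRKO at ZT0 (-0.26 ± 0.06, adjusted p = 0.00674, edgeR) and not called at ZT12 (-0.15 ± 0.06, adjusted p = 0.0939), the opposite direction to Slc9a3. It rose from ZT0 to ZT12 by 0.29 ± 0.06 in CardioGRKO (adjusted p = 0.00329) and by 0.19 ± 0.06 in GRflox (adjusted p = 0.0403). The rise in GRflox was no longer called after thinning every library to the shallowest total (adjusted p = 0.165), without the filter on low counts (0.0530) or in a fit of only the groups compared (0.0716). It was also lost without any 1 of GRflox replicates 1, 2, 3 and 5 at ZT0 or 2, 3 and 4 at ZT12, with adjusted p from 0.0548 to 0.161.

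Sodium-calcium exchangers export calcium in exchange for the entry of sodium. Slc8a1 (Entrez 20541, mm10 chr17:81373105-81738387) encodes NCX1, the exchanger of the cardiomyocyte surface. It was lower in CardioGRKO at both times. Slc8a1 measured 646, 647, 664, 689.6 and 649 CPM in GRflox at ZT0 and 556, 450.3, 538, 540.3 and 612 CPM in CardioGRKO. At ZT12 Slc8a1 measured 646, 574, 642, 654 and 534 CPM in GRflox and 464, 504, 619.8, 422 and 426 CPM in CardioGRKO. The genotypes were apart at ZT0 and overlapped at ZT12, where CardioGRKO replicate 3 reached into the GRflox range. The log2 difference was -0.29 ± 0.09 at ZT0 (adjusted p = 0.0246, edgeR) and -0.32 ± 0.09 at ZT12 (adjusted p = 0.00838). The ZT0 call was lost without GRflox replicate 4 (adjusted p = 0.0544) and without CardioGRKO replicate 2 (adjusted p = 0.0876). Slc8a1 was not called between times, at -0.11 ± 0.09 in GRflox and -0.15 ± 0.09 in CardioGRKO. It shares 296 exon bases with the antisense gene AC122399.1 and 8 with Gm11096, both on the opposite strand.

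Cardiomyocyte markers moved in the same direction as Slc8a1. Of the 11 listed, 6 were called lower and 1 higher in CardioGRKO at ZT0, and 8 lower and none higher at ZT12, with summed levels given above and no marker at 0. Of all genes, 7.35% were lower and 7.36% higher at ZT0, and 10.7% and 10.4% at ZT12. The median difference of the 11 markers was -0.16 at ZT0 and -0.22 at ZT12, beside -0.29 and -0.32 for Slc8a1. Ryr2, the calcium release channel, differed by -0.38 ± 0.06 and -0.56 ± 0.06, and Atp2a2, the calcium pump of the sarcoplasmic reticulum, by -0.16 ± 0.05 and -0.24 ± 0.05. The part of cardiomyocyte RNA content in the Slc8a1 difference was not tested.

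The other sodium-calcium exchangers, known chiefly from brain and skeletal muscle, were at low levels and higher in CardioGRKO. Slc8a2 (Entrez 110891, mm10 chr7:16127592-16161063) measured 1.68, 2.12, 2.13, 1.93 and 2.07 CPM in GRflox at ZT0 and 2.96, 3.49, 3.25, 4.0 and 2.92 CPM in CardioGRKO. At ZT12 Slc8a2 measured 2.32, 2.43, 2.62, 2.41 and 1.57 CPM in GRflox and 3.6, 2.64, 4.52, 3.64 and 2.48 CPM in CardioGRKO. All CardioGRKO libraries were above GRflox at ZT0, and at ZT12 the lowest CardioGRKO library lay within the GRflox range. Slc8a2 was higher by 0.77 ± 0.16 at ZT0 (adjusted p = 0.00214, edgeR) and 0.57 ± 0.16 at ZT12 (adjusted p = 0.0114), and both calls were lost when every library was thinned to the shallowest total (adjusted p = 0.0849 and 0.0568). Slc8a3 rested on 0 to 6 reads per GRflox library and 7 to 17 per CardioGRKO library at ZT12, where it was higher by 1.5 ± 0.40 (adjusted p = 0.00767). Slc8a3 lay near the count filter, and the 9 alternative fits that tested it called it. Fits with the filter test Slc8a3 only where enough libraries hold reads, so their calls add no separate support. Slc8a3 was not tested after thinning, in the fit of only the groups compared or without some single libraries. Those fits could neither keep nor lose the call. At ZT0 Slc8a3 was not called (0.44 ± 0.38).

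The potassium-dependent sodium-calcium exchangers of the Slc24 family had no call between genotypes among 4 tested genes in edgeR or DESeq2, and 1 gene at each time had an unadjusted p under 0.05. Beside this, edgeR called 14.7% of all genes between genotypes at ZT0 and 21.1% at ZT12. Slc24a3, the family member with the smallest adjusted p, measured 4.28, 4.79, 4.5, 6.14 and 5.09 CPM in GRflox at ZT0 and 4.45, 3.28, 4.92, 5.36 and 2.30 CPM in CardioGRKO. At ZT12 Slc24a3 measured 4.08, 3.72, 2.97, 3.58 and 3.85 CPM in GRflox and 2.97, 3.23, 2.03, 2.67 and 2.85 CPM in CardioGRKO. GRflox libraries were lower at ZT12 without overlap, and CardioGRKO libraries overlapped between times. The time difference was -0.59 ± 0.18 in CardioGRKO (adjusted p = 0.0353, edgeR) and -0.45 ± 0.17 in GRflox (adjusted p = 0.0715). Without any 1 of CardioGRKO replicates 1, 3 and 4 at ZT0 or 3, 4 and 5 at ZT12 the call was lost, with adjusted p from 0.0523 to 0.151, as it was after thinning (0.170) and in a fit of only the groups compared (0.0961).

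Partner genes of calcium and sodium transport were read from a list of pumps and mitochondrial calcium proteins. Of all genes tested, 7.36% were higher and 7.35% lower in CardioGRKO at ZT0, and 10.4% and 10.7% at ZT12. Of 9 sodium pump genes tested, 1 was higher and 1 lower at each time. Fxyd6, a small regulatory subunit of the pump, was higher in CardioGRKO by 0.87 ± 0.12 at ZT0 and 0.93 ± 0.12 at ZT12. Atp1b2, a beta subunit, was lower at ZT0 (-0.27 ± 0.09), and Fxyd1, which encodes phospholemman, was lower at ZT12 (-0.25 ± 0.05). Of 10 calcium pump and mitochondrial calcium genes, 1 was higher and 1 lower at each time: Micu2, a gatekeeper of the mitochondrial uniporter, was higher at both (0.26 ± 0.05 and 0.26 ± 0.05), Mcu, its pore, was lower at ZT0 (-0.24 ± 0.06), and Letm1 was lower at ZT12 (-0.16 ± 0.06).

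**Figure D3:**
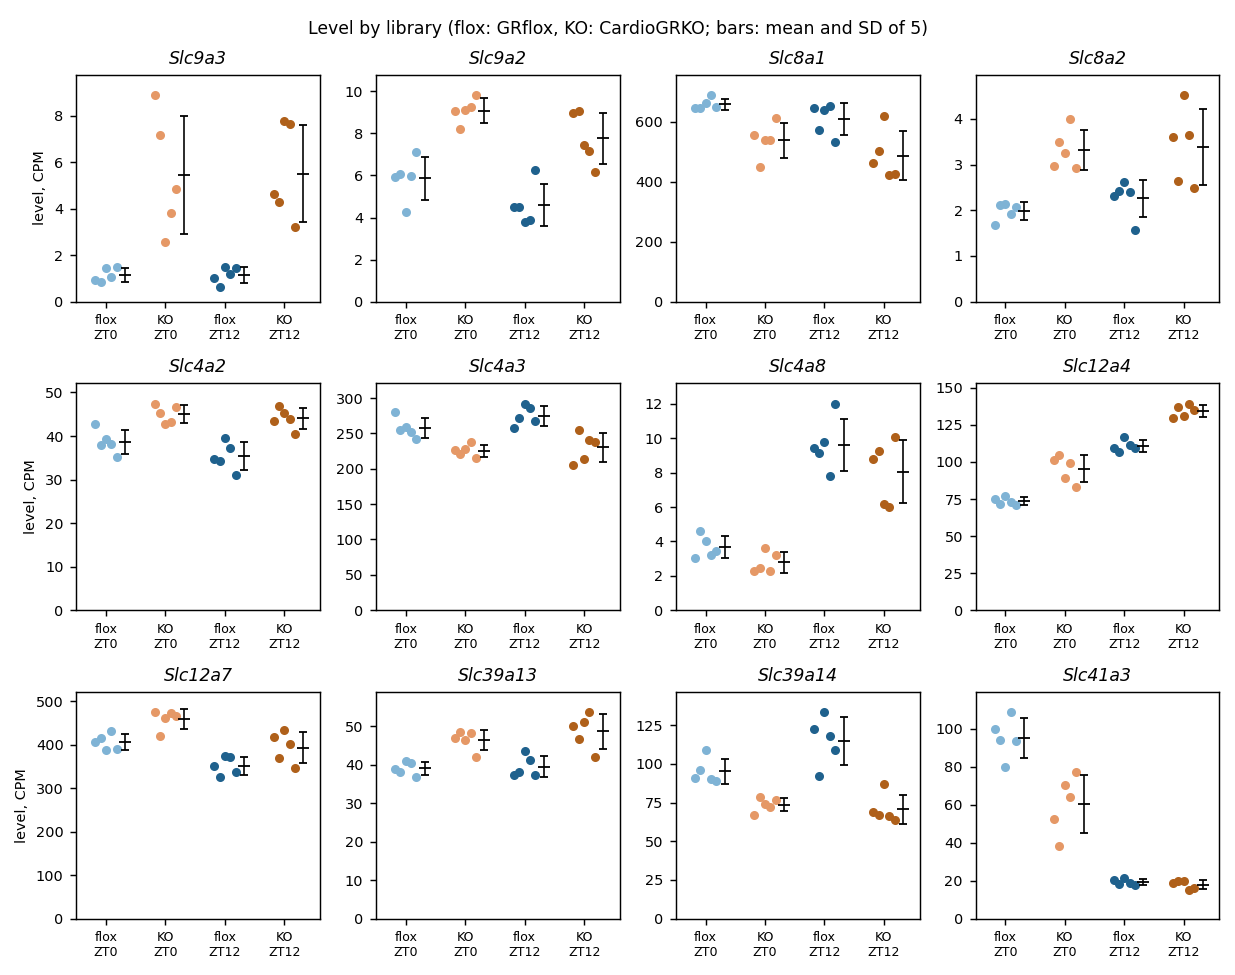
CPM of 12 carrier genes in each of the 20 libraries, by group, with points for libraries and a bar beside them for the mean and SD of 5; each panel has its own axis starting at 0. Slc9a3 is higher in both CardioGRKO groups, Slc41a3 is high in both ZT0 groups, and Slc12a4 steps up with both genotype and time.

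Bicarbonate and anion exchangers of the Slc4 family move bicarbonate against chloride or together with sodium. Slc4a2 (AE2) is found in most tissues, and Slc4a3 (AE3) is the anion exchanger typical of heart and brain. They moved in opposite directions. Slc4a2 measured 42.8, 37.9, 39.3, 38.2 and 35.2 CPM in GRflox at ZT0 and 47.4, 45.2, 42.7, 43.2 and 46.7 CPM in CardioGRKO. At ZT12 Slc4a2 measured 34.8, 34.3, 39.4, 37.3 and 31.0 CPM in GRflox and 43.5, 46.9, 45.3, 44.0 and 40.5 CPM in CardioGRKO. At ZT0 only GRflox replicate 1 reached into the CardioGRKO range, and at ZT12 the groups were apart. Slc4a2 was higher in CardioGRKO by 0.22 ± 0.06 (adjusted p = 0.0193, edgeR) and 0.31 ± 0.06 (adjusted p = 5.26e-04), and the ZT0 call was lost without GRflox replicate 5 (adjusted p = 0.0603). Slc4a2 shares 1141 exon bases with Fastk on the opposite strand, and strand use in the counting is not given in the sources at hand. Fastk itself was lower in CardioGRKO, at -0.24 ± 0.06 at ZT0 and -0.29 ± 0.06 at ZT12.

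Slc4a3 was lower in CardioGRKO without overlap at either time. It measured 280.3, 255, 259, 252 and 242 CPM in GRflox at ZT0 and 226, 220.4, 228, 238 and 215 CPM in CardioGRKO. At ZT12 Slc4a3 measured 257, 272, 292, 286 and 268 CPM in GRflox and 205, 254, 214, 241 and 237 CPM in CardioGRKO. The highest CardioGRKO library stayed under the lowest GRflox library both times. Slc4a3 differed by -0.19 ± 0.05 at ZT0 (adjusted p = 0.0176, edgeR) and -0.26 ± 0.05 at ZT12 (adjusted p = 0.00118). The ZT0 call was lost without GRflox replicate 1 (adjusted p = 0.0687). Beside it stand the cardiomyocyte markers already given for Slc8a1, of which 6 of 11 were called lower and 1 higher at ZT0 and 8 lower at ZT12. Their part in the Slc4a3 difference was not tested.

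Slc4a8 encodes NDCBE, which brings in sodium and bicarbonate in exchange for chloride. It was the family member with the largest called time difference and was not called between genotypes. Slc4a8 measured 3.06, 4.62, 4.05, 3.21 and 3.44 CPM in GRflox at ZT0 and 2.30, 2.46, 3.61, 2.30 and 3.19 CPM in CardioGRKO. At ZT12 Slc4a8 measured 9.41, 9.12, 9.77, 7.80 and 12.0 CPM in GRflox and 8.81, 9.29, 6.17, 6.01 and 10.1 CPM in CardioGRKO. Every ZT12 library was above every ZT0 library, whichever the genotype, on 14 to 332 reads per library. It rose by 1.37 ± 0.16 in GRflox, or 2.59-fold (adjusted p = 1.11e-06, edgeR), and by 1.53 ± 0.17 in CardioGRKO, or 2.89-fold (adjusted p = 1.31e-06). The genotype differences were -0.42 ± 0.18 at ZT0 (adjusted p = 0.127) and -0.27 ± 0.15 at ZT12 (adjusted p = 0.222).

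Slc4a1 encodes band 3, the anion exchanger of red blood cells. In GRflox at ZT12 it measured 0.352, 0.628, 0.294, 13.0 and 0.261 CPM, so replicate 4, with 200 reads, stood far above the rest. In the other 3 groups it ranged from 0 to 1.46 CPM. No contrast called Slc4a1, with 2.36 ± 0.93 between times in GRflox (adjusted p = 0.0863, edgeR) and -2.0 ± 0.88 between genotypes at ZT12 (adjusted p = 0.113). Without that library the values were -0.42 ± 0.69 and 0.76 ± 0.65. Alas2, the heme synthesis enzyme of red cells, measured 9.52, 8.58, 4.35, 51.9 and 4.51 CPM in the same group, highest in the same library. Of the 10 listed red cell markers 2 were tested, and the globin genes Hba-a1, Hba-a2, Hbb-bs and Hbb-bt were listed at 0 in all libraries. At ZT0 the sum of the list ran from 39.5 to 61.9 CPM in GRflox and from 65.6 to 83.3 CPM in CardioGRKO, without overlap, and at ZT12 from 37.3 to 87.8 and 70.9 to 88.8 CPM. Of the 2 tested, 1 was called higher in CardioGRKO at each time and none lower, and Alas2 was not called between genotypes. Of all genes, 7.36% were called higher at ZT0 and 10.4% at ZT12. The part of red cells in the Slc4a1 values was not tested.

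Partner genes of pH control were called in both directions. Of 12 tested, 1 was higher and 3 lower in CardioGRKO at ZT0 (beside 7.36% and 7.35% of all genes), and 2 higher and 3 lower at ZT12 (beside 10.4% and 10.7%). The carbonic anhydrases Car2 and Car14, which interconvert carbon dioxide and bicarbonate, were lower: Car2 differed by -0.94 ± 0.13 at ZT0 and -1.12 ± 0.13 at ZT12, and Car14 by -0.57 ± 0.07 and -0.97 ± 0.07. Tesc, which encodes a calcium-binding protein, was also lower (-0.46 ± 0.06 and -0.57 ± 0.06). Slc16a1, the lactate and proton cotransporter MCT1, was higher by 0.36 ± 0.06 and 0.32 ± 0.06, and Car13 was higher at ZT12 (1.03 ± 0.32).

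Cation-chloride cotransporters of the Slc12 family either bring in sodium, potassium and chloride (Slc12a2, NKCC1) or take potassium and chloride out (the KCC proteins, Slc12a4 and Slc12a7 among them). Of 7 tested genes 2, Slc12a4 and Slc12a7, were higher in CardioGRKO at both times. Of all genes, 10.8% were called at both times in 1 direction. Slc12a4 and Slc12a7 were also the carrier genes called in all 4 contrasts. Slc12a4 (KCC1, Entrez 20498, mm10 chr8:105943590-105966149) measured 75.3, 71.9, 77.2, 72.9 and 71.1 CPM in GRflox at ZT0 and 101, 105, 89.1, 99.4 and 83.1 CPM in CardioGRKO. At ZT12 Slc12a4 measured 109, 106, 117, 111 and 109.7 CPM in GRflox and 129.6, 137, 131, 139 and 135 CPM in CardioGRKO. Ranges of the 4 groups did not overlap and stood in the order GRflox at ZT0, CardioGRKO at ZT0, GRflox at ZT12 and CardioGRKO at ZT12. Group means were 73.7 ± 2.53, 95.5 ± 9.08, 111 ± 3.79 and 134 ± 4.20 CPM (SD, n = 5). The genotype difference was 0.38 ± 0.05 at ZT0 (adjusted p = 1.69e-05, edgeR) and 0.28 ± 0.05 at ZT12 (adjusted p = 2.51e-04). The time difference was 0.59 ± 0.05 in GRflox (adjusted p = 1.25e-08) and 0.49 ± 0.05 in CardioGRKO (adjusted p = 4.50e-07). Slc12a4 shares 361 exon bases with the antisense gene Gm16156.

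Slc12a7 (KCC4) was far more abundant and differed by less, and its direction over time was the reverse of that of Slc12a4. Slc12a7 measured 406, 416, 388, 432 and 389.5 CPM in GRflox at ZT0 and 475, 420.0, 461, 473 and 466 CPM in CardioGRKO. At ZT12 Slc12a7 measured 351, 326, 373, 372 and 338 CPM in GRflox and 418, 369, 434, 401 and 346 CPM in CardioGRKO. Genotypes overlapped at both times, as did the times in CardioGRKO, while GRflox was lower at ZT12 without overlap. From ZT0 to ZT12 Slc12a7 changed by -0.21 ± 0.06 in GRflox (adjusted p = 0.0125, edgeR) and -0.22 ± 0.06 in CardioGRKO (adjusted p = 0.0138). The genotype difference was 0.18 ± 0.06 at ZT0 (adjusted p = 0.0370) and 0.16 ± 0.06 at ZT12 (adjusted p = 0.0435). At ZT0 that call was lost without any 1 of GRflox replicates 1, 2, 3 and 5 or CardioGRKO replicates 1, 3, 4 and 5 (adjusted p from 0.0534 to 0.0873). At ZT12 it was lost without any 1 of GRflox replicates 1, 2 and 5 or CardioGRKO replicates 1, 3 and 4 (adjusted p from 0.0709 to 0.129), and in a fit of only the groups compared (0.0923).

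Kinases and ligases known to act on these cotransporters were read from a list of which 11 genes were tested. At ZT0, 2 were higher and 1 lower in CardioGRKO (beside 7.36% and 7.35% of all genes), and at ZT12 2 were higher and 2 lower (beside 10.4% and 10.7%). Wnk2 was lower (-1.04 ± 0.09 at ZT0 and -1.32 ± 0.09 at ZT12), while Wnk1 was higher (0.33 ± 0.05 and 0.25 ± 0.05). Both encode kinases of the WNK family, which restrain the KCC proteins and activate NKCC1 through the downstream kinases of Stk39 and Oxsr1. Nedd4l, a ubiquitin ligase, was higher at ZT12 (0.25 ± 0.05). Wnk4 rose from ZT0 to ZT12 in both genotypes, by 0.99 ± 0.07 in GRflox and 0.85 ± 0.07 in CardioGRKO. Sgk1, a kinase known as a glucocorticoid target, differed by -0.20 ± 0.13 and -0.18 ± 0.13 and was not called at either time.

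Slc20a1 and Slc20a2 encode the sodium-phosphate cotransporters PiT1 and PiT2. Neither was called in any contrast by edgeR or DESeq2, nor did either have an unadjusted p under 0.05. Slc20a1, with the smaller p of the pair, measured 18.3, 18.1, 27.9, 17.1 and 18.4 CPM in GRflox at ZT0 and 16.8, 25.3, 21.2, 19.6 and 22.4 CPM in CardioGRKO. At ZT12 Slc20a1 measured 21.6, 16.4, 17.5, 20.9 and 24.2 CPM in GRflox and 21.4, 18.3, 22.1, 22.1 and 19.6 CPM in CardioGRKO. All 4 ranges overlapped. Slc20a2 was steady, with group means of 241 ± 13.6, 239.8 ± 14.6, 246 ± 26.8 and 240.3 ± 19.0 CPM (SD, n = 5) in GRflox and CardioGRKO at ZT0 and then at ZT12. Its genotype differences were -0.01 ± 0.07 and -0.04 ± 0.07. Of the phosphate partner list 2 genes were tested, and Fgfr1, a receptor for phosphate-regulating hormones, rose from ZT0 to ZT12 by 0.18 ± 0.06 in GRflox and 0.25 ± 0.06 in CardioGRKO.

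Among zinc importers, 11 of the 14 Slc39 genes were tested. Slc39a14 encodes ZIP14, which takes up zinc, iron and manganese and is known as an inflammation-induced carrier of liver. Slc39a14 (Entrez 213053, mm10 chr14:70303467-70351452) had the smallest adjusted p of all carrier genes between genotypes at ZT12, where it was lower in CardioGRKO. It measured 91.0, 96.2, 109, 90.5 and 88.7 CPM in GRflox at ZT0 and 67.2, 78.7, 74.4, 72.0 and 76.6 CPM in CardioGRKO. At ZT12 Slc39a14 measured 123, 92.0, 133, 118 and 109 CPM in GRflox and 68.9, 67.2, 86.8, 66.6 and 63.5 CPM in CardioGRKO. GRflox was above CardioGRKO at both times without overlap. Slc39a14 differed by -0.36 ± 0.09 at ZT0 (adjusted p = 0.00618, edgeR) and -0.70 ± 0.09 at ZT12 (adjusted p = 2.11e-06). It rose from ZT0 to ZT12 in GRflox (0.27 ± 0.09, adjusted p = 0.0298) and was not called in CardioGRKO (-0.07 ± 0.09, adjusted p = 0.726). The time call was lost without any 1 of GRflox replicates 1, 2, 4 and 5 at ZT0 or 1, 3 and 4 at ZT12 (adjusted p from 0.0532 to 0.109). The difference between these time effects was -0.34 ± 0.12 and was not called (adjusted p = 0.571).

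Slc39a13 and Slc39a7, which encode zinc carriers of internal membranes (ZIP13 and ZIP7), were higher in CardioGRKO. Slc39a13 measured 39.0, 38.0, 40.9, 40.4 and 36.9 CPM in GRflox at ZT0 and 46.9, 48.4, 46.4, 48.1 and 42.0 CPM in CardioGRKO. At ZT12 Slc39a13 measured 37.4, 38.1, 43.7, 41.1 and 37.4 CPM in GRflox and 50, 46.7, 51.1, 53.6 and 41.9 CPM in CardioGRKO. The genotypes were apart at ZT0, and at ZT12 CardioGRKO replicate 5 lay within the GRflox range. Slc39a13 was higher by 0.25 ± 0.06 at ZT0 (adjusted p = 0.00709, edgeR) and 0.30 ± 0.06 at ZT12 (adjusted p = 8.89e-04). It shares 215 exon bases with Psmc3 on the other strand, which differed by -0.01 and -0.05. Slc39a7 was higher at ZT12 (0.17 ± 0.05, adjusted p = 0.0102), without overlap, and not called at ZT0 (0.11 ± 0.05). It shares 2084 exon bases with Gm20427 on its own strand.

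Slc39a6 and Slc39a10 encode ZIP6 and ZIP10, closely related importers of the cell surface, and each had calls of its own. Slc39a6 was lower in CardioGRKO at ZT12 (-0.42 ± 0.12, adjusted p = 0.0130, edgeR), which was lost after thinning (adjusted p = 0.0857), and it was not called at ZT0 (-0.11 ± 0.12). Slc39a10 measured 14.2, 18.6, 17.4, 17.6 and 18.6 CPM in GRflox at ZT0 and 17.1, 16.0, 15.8, 17 and 14.7 CPM in CardioGRKO. At ZT12 Slc39a10 measured 13.7, 13.9, 10.7, 12.3 and 13.7 CPM in GRflox and 12.0, 14.6, 13.2, 13.2 and 12.2 CPM in CardioGRKO. Libraries at ZT12 lay below those at ZT0 in each genotype. Slc39a10 changed by -0.43 ± 0.08 in GRflox (adjusted p = 6.64e-04) and -0.30 ± 0.08 in CardioGRKO (adjusted p = 0.0248). The CardioGRKO call was lost without replicate 4 at ZT0 (adjusted p = 0.0654) or replicates 1 and 5 at ZT12 in turn (0.0641 and 0.0561), and after thinning (0.147).

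The last called importer, Slc39a9, was lower at ZT12 in GRflox (-0.16 ± 0.05, adjusted p = 0.0251, edgeR) and not called in CardioGRKO (-0.09 ± 0.05, adjusted p = 0.308). The call was lost without GRflox replicates 1 or 2 at ZT0 or replicate 2 at ZT12 (adjusted p = 0.0675, 0.0734 and 0.0778) and after thinning (0.142). Slc39a9 shares 459 exon bases with Erh on the other strand, which was not called (-0.14 ± 0.11). Slc39a1, the most abundant importer, was called in no contrast.

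Zinc exporters of the Slc30 family had no genotype call among 7 tested genes in edgeR or DESeq2 and none at an unadjusted p under 0.05, with differences from -0.14 to 0.40 at ZT0 and from -0.11 to 0.23 at ZT12. Of all genes, edgeR called 14.7% at ZT0 and 21.1% at ZT12, so few calls would stand out among 7 genes. Slc30a1 encodes ZnT1, the exporter of the cell surface, whose gene is a known target of the zinc-sensing factor MTF1. Slc30a1 measured 28.6, 21.2, 22.8, 22.1 and 23.3 CPM in GRflox at ZT0 and 20.6, 21.6, 21.9, 21.8 and 20.9 CPM in CardioGRKO. At ZT12 Slc30a1 measured 27.0, 27.7, 27.2, 31.2 and 26.4 CPM in GRflox and 25.7, 27.4, 27.8, 22.7 and 25.9 CPM in CardioGRKO. It was higher at ZT12 in both genotypes, without overlap in CardioGRKO, while GRflox replicate 1 at ZT0 reached into the ZT12 range. Slc30a1 rose by 0.24 ± 0.07 in GRflox (adjusted p = 0.0216, edgeR) and by 0.27 ± 0.07 in CardioGRKO (adjusted p = 0.0196). Slc30a1 shares 468 exon bases with the antisense gene 1700034H15Rik. That gene differed between times by 0.50 ± 0.22 in GRflox and 0.57 ± 0.22 in CardioGRKO and was not called. The GRflox call was lost without replicates 2 or 4 at ZT0 or replicate 4 at ZT12 (adjusted p = 0.0738, 0.0533 and 0.0686) and after thinning (0.152). The CardioGRKO call was lost without replicates 2 or 3 at ZT12 (adjusted p = 0.0553 and 0.0526).

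Partner genes of zinc, iron and manganese numbered 14 tested. None of them was higher and 4 were lower in CardioGRKO at ZT0 (beside 7.36% and 7.35% of all genes), and 1 was higher and 5 lower at ZT12 (beside 10.4% and 10.7%). Mt1 and Mt2 encode metallothioneins, which bind zinc and whose genes are known to respond to glucocorticoids and to zinc. Mt1 was lower (-0.78 ± 0.15 at ZT0 and -1.33 ± 0.15 at ZT12), and so was Mt2 at ZT12 (-1.81 ± 0.36). Slc40a1, the iron exporter ferroportin, was lower at both times (-0.83 ± 0.18 and -0.65 ± 0.18). Fth1, the ferritin heavy chain, was lower too (-0.24 ± 0.05 and -0.37 ± 0.05). Mt1 and Mt2 both rose from ZT0 to ZT12, Mt1 by 1.11 ± 0.15 in GRflox and 0.57 ± 0.15 in CardioGRKO, and Mt2 by 2.54 ± 0.38 and 1.58 ± 0.46. Tfrc, the transferrin receptor, fell over the same span (-1.09 ± 0.28 and -1.05 ± 0.28).

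Magnesium carriers of the Slc41 family exchange magnesium for sodium, and Slc41a3 is known as a carrier of mitochondrial membranes. Slc41a3 (Entrez 71699, mm10 chr6:90604730-90646412) had the largest time difference called among the carrier genes, in both genotypes. The 250 bases before its RefSeq start (GRCm38.p6, chr6:90618996-90619245, plus strand) are shown, with those of Slc4a8 (chr15:100761497-100761746, plus strand), as the carrier genes with the largest called fall and rise between times. The Slc41a3 stretch lies inside the annotated span of the gene, and no other window of Slc41a3 was searched. These were chosen after their values were seen. Capitals again mark CACGTG.
Slc41a3: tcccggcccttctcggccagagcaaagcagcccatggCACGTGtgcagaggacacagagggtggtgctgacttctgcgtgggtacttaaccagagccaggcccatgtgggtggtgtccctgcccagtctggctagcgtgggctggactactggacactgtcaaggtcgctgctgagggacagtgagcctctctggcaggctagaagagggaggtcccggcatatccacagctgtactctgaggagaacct
Slc4a8: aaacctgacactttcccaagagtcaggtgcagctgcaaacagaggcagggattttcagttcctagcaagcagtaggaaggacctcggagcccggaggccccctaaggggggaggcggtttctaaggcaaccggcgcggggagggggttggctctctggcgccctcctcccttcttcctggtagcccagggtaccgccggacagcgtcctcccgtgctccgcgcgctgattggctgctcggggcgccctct
The E-box of Slc41a3 begins 213 bases before the start, and Slc4a8 has none in this stretch. Neither stretch holds AGAACA or the D-box TTATGTAA, another element known to be bound by clock output factors, searched on both strands. Over the set, RefSeq windows were found for 54 of the 68 genes, 45 of them tested. An E-box was in 9 of their 70 windows (12.9%), beside 6.02% of all promoters, and in those of 8 tested genes: Slc9a3, Slc12a5, Slc12a7, Slc12a9, Slc20a1, Slc30a5, Slc39a8 and Slc41a3. Of these, Slc41a3 and Slc12a7 were called between times and the other 6 were not. Beside them, 11 of the 55 tested genes of the set were called between times in at least 1 genotype. Of all genes, 17.3% were called between times in GRflox and 9.17% in CardioGRKO. Slc12a7 also has an overlapping window without an E-box. No window of the set held the D-box (0.819% of all promoters), and 6 genes held AGAACA (8.57% of windows, beside 16.1%).

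Slc41a3 measured 99.98, 93.8, 79.8, 109 and 93.4 CPM in GRflox at ZT0 and 52.4, 38.2, 70.6, 64.0 and 77.1 CPM in CardioGRKO. At ZT12 Slc41a3 measured 20.2, 18.5, 21.2, 19.0 and 17.7 CPM in GRflox and 18.7, 19.7, 20.04, 15.1 and 16.2 CPM in CardioGRKO. All ZT0 libraries were above all ZT12 libraries, and at ZT0 the GRflox libraries were above all CardioGRKO libraries, which were spread widely. Means were 95.1 ± 10.6 and 60.4 ± 15.4 CPM (SD, n = 5) at ZT0 and 19.3 ± 1.39 and 18 ± 2.20 CPM at ZT12. From ZT0 to ZT12 Slc41a3 changed by -2.29 ± 0.14 in GRflox, 4.90-fold lower (adjusted p = 1.43e-11, edgeR), and by -1.75 ± 0.14 in CardioGRKO, 3.35-fold lower (adjusted p = 4.39e-09). Between genotypes it was lower in CardioGRKO at ZT0 (-0.66 ± 0.13, adjusted p = 8.33e-04), or 1.57-fold, and not called at ZT12 (-0.11 ± 0.14, adjusted p = 0.643). The difference between the time effects was 0.55 ± 0.19 and was not called (adjusted p = 0.523).

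The other magnesium carriers, Slc41a1 and Slc41a2, were called in no contrast. Slc41a1, a sodium-dependent exporter of the cell surface, differed by -0.07 ± 0.06 at ZT0 and -0.13 ± 0.06 at ZT12 between genotypes and by 0.10 ± 0.06 and 0.04 ± 0.06 between times. Of 12 tested partner genes of magnesium transport none was called between genotypes at ZT0 by edgeR, with 1 at an unadjusted p under 0.05. At ZT12 2 were higher, Cnnm4 (0.21 ± 0.07) and Nipa1 (0.37 ± 0.13), and none lower. Of all genes, 14.7% were called at ZT0 and 21.1% at ZT12. Magt1, whose product has been tied to magnesium uptake, fell from ZT0 to ZT12 (-0.35 ± 0.07 in GRflox and -0.34 ± 0.07 in CardioGRKO).

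**Figure D4:**
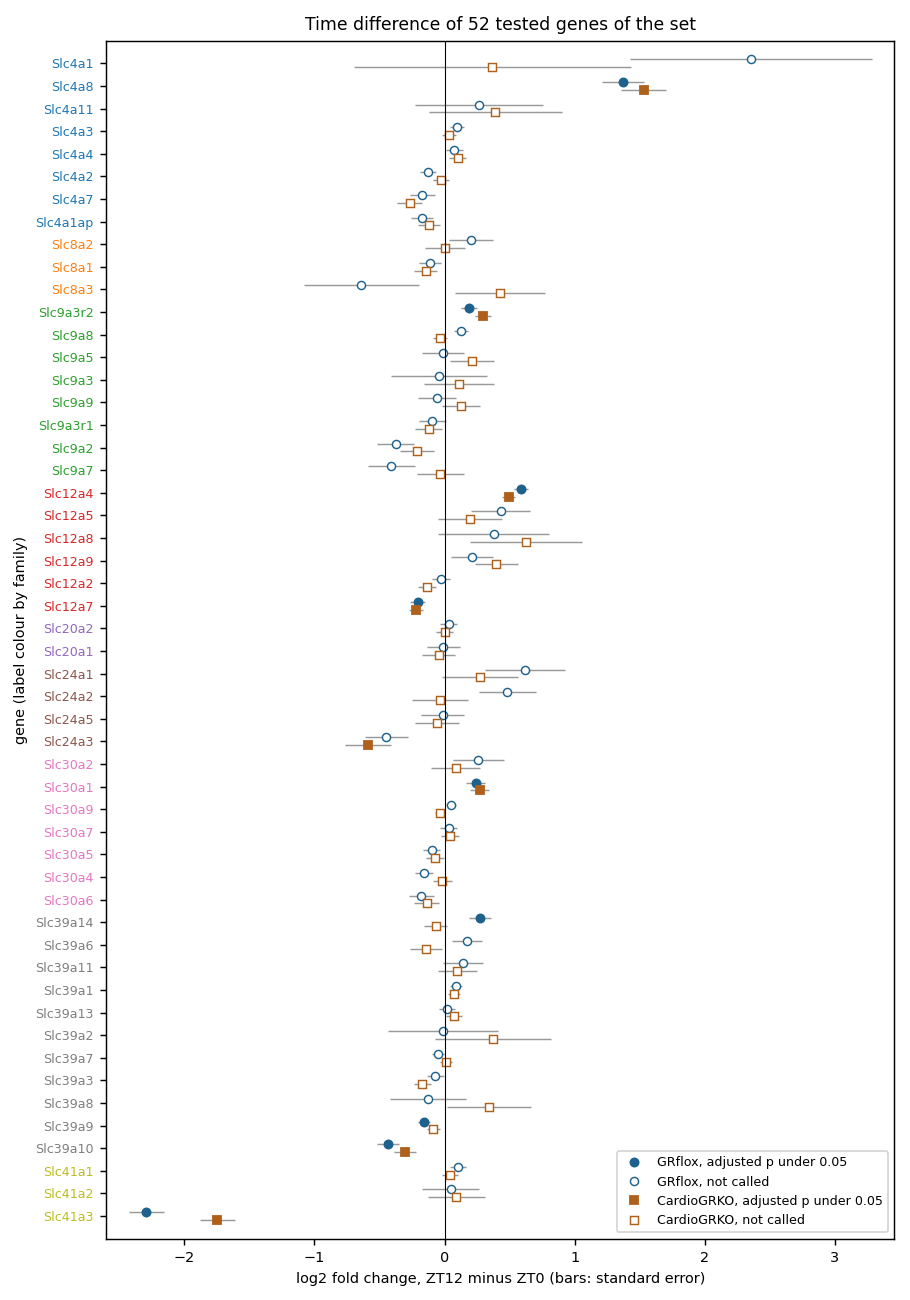
Log2 fold change from ZT0 to ZT12 of 52 of the 55 tested genes, circles for GRflox and squares for CardioGRKO, with bars of 1 standard error and filled symbols for an adjusted p under 0.05; genes are grouped by family (label colour). Slc41a3 lies farthest to the left, at -2.29 and -1.75, and Slc4a8 is the called gene farthest to the right, at 1.37 and 1.53; the open circle of Slc4a1 at 2.36 rests on 1 library.

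The remaining genes tested, 33 in all with those already given, were called in none of the 4 contrasts. They include abundant carriers whose differences were close to 0. Slc39a1 lay between -0.01 and 0.09 over the 4 contrasts, Slc30a9, the zinc carrier with the highest level of its family, between -0.05 and 0.05, and Slc4a4, the sodium-bicarbonate cotransporter NBCe1, between 0.03 and 0.10. Slc12a2, which encodes NKCC1, lay between -0.13 and 0.10. Others had wider values at low levels, among them Slc39a8 (from -0.74 to 0.35 at 0.117 RPKM), Slc12a5, the neuronal cotransporter KCC2 (from -0.60 to 0.43 at 0.286 RPKM), and Slc12a8 (from -0.07 to 0.63 at 0.0979 RPKM). A difference that was not called is not shown to be absent, least of all at such levels. Called in no contrast either, whatever their level, were Slc4a7, Slc4a11, Slc4a1ap, Slc9a3r1, Slc9a5, Slc9a7, Slc9a9, Slc12a9, Slc24a1, Slc24a2 and Slc24a5. The same held for Slc30a2, Slc30a4, Slc30a5, Slc30a6, Slc30a7, Slc39a2, Slc39a3 and Slc39a11.

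Whether the time difference itself depended on genotype was tested with the interaction of both factors. None of the 55 genes of the set was called (0.186% of all genes were), and the smallest adjusted p among them was 0.523 in edgeR. At an unadjusted p under 0.05 there were 3: Slc41a3 (0.55 ± 0.19), Slc39a14 (-0.34 ± 0.12) and Slc9a8 (-0.16 ± 0.08). DESeq2 gave an adjusted p in this contrast to only 43 genes of the set and called none of them. A call in 1 genotype or at 1 time alone, as for Slc9a8, Slc39a14, Slc39a9 or Slc41a3 above, was therefore not shown to differ from its counterpart.

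Libraries of the compared groups did not overlap for 11 of the 55 genes between genotypes at ZT0 (20%, beside 11.9% of all genes) and for 7 at ZT12 (12.7%, beside 13.8%). Between times the number was 8 in GRflox (14.5%, beside 12.5%) and 7 in CardioGRKO (12.7%, beside 7.11%). All of these were also called except Slc9a8 and Slc24a3 between times in GRflox. Without replicate 1 of CardioGRKO at ZT0, the shallowest library, 11 genes of the set were called between genotypes at ZT0 in place of 13, with the calls of Slc12a7 and Slc9a8 lost, and 8 between times in CardioGRKO in place of 9, with that of Slc24a3 lost.

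Endothelial markers also differed between the groups. Of 12 tested, 6 were lower and none higher in CardioGRKO at ZT0 (beside 7.35% and 7.36% of all genes), and 5 lower and none higher at ZT12 (beside 10.7% and 10.4%). Between times 1 was higher and 5 lower in GRflox (beside 8.13% and 9.17% of all genes), and 1 higher and 4 lower in CardioGRKO (beside 4.42% and 4.75%). Their sum ran from 1939 to 2075 CPM in GRflox and 1699 to 1857 in CardioGRKO at ZT0, and from 1763 to 1969 and 1526 to 1760 at ZT12, with no marker at 0. Fibroblast markers showed 1 genotype call among 10, Col3a1 at ZT12, and the 9 tested macrophage markers had none at either time, with 1 at an unadjusted p under 0.05 at ZT12. The part of endothelial cells in the carrier gene differences was not tested.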

How the data were processed

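Per the labels' protocols, poly(A)-enriched libraries were made from total RNA of 20 left ventricular walls with an Illumina TruSeq kit and sequenced as paired ends. The values the authors deposited are raw counts per gene. Per the submitters' processing notes the tools were STAR 2.5.1 and DESeq2 1.38.3, with featureCounts from Subread 1.5.1 and the build mm10. Not given in the sources used here are strand use, the treatment of reads that match several genes and the annotation release. Genes that share exons can therefore share or lose reads: 8 of the 22 genes of the set that were called share exon bases with another gene.

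The 24918 lines of each table were summed by Entrez identifier to 24059 genes, which changed no carrier gene, and 4768 genes had no count. Genes were kept by filterByExpr (minimum count 10, minimum total 15), which left 14007. The main test was edgeR 4.0.16 (R 4.3.3), the quasi-likelihood F-test on a model of group means over all 20 libraries with TMM factors (0.961 to 1.040), which gave a common biological coefficient of variation of 8.8%. P-values were adjusted by Benjamini-Hochberg over all genes tested, with a threshold of 0.05. Standard errors were obtained by dividing the absolute change by the root of its F statistic. CPM values are scaled by TMM. RPKM divides them by the union exon length of GENCODE M21, which may not be the annotation counted. Promoters are RefSeq windows of GRCm38.p6 (equivalent to mm10), read for 250 bases before the start, and their coordinates and those of genes are on that build. The code was tested on simulated counts. Figures were drawn with matplotlib 3.10.9. Replicates of 1 group differed beyond sampling noise (chi-square per gene 4.38 to 22.05), so no pair within a group looked like 1 library deposited again, and pairs across groups were not compared. Alternatives were DESeq2 1.42.0, other size factors, no filter, thinning to the shallowest library, a fit of the groups compared alone, a replicate block and leaving out each library.

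The carrier genes, the lists of partner and marker genes and the tests were chosen with earlier results of these data known. Library values are given for Slc9a3, Slc41a3 and Slc8a1, for genes called in both genotype or both time contrasts, and for the smallest adjusted p of each family. Values of 3 carrier genes are not reported here, though counts include them. Of partner lists, counts and up to 3 genes of smallest p per contrast are given, with Sgk1, Letm1, Car13, Ryr2 and Atp2a2 chosen after their values were seen. The listed lymphocyte, adipocyte, Schwann cell and smooth muscle markers were also measured: of 4, 4, 7 and 10 tested, 0, 1, 0 and 4 were called between genotypes at ZT0, beside 14.7% of all genes. At ZT12 0, 2, 0 and 3 were called, beside 21.1% of all genes. Smooth muscle calls were 1 higher and 3 lower in CardioGRKO at ZT0, and 1 higher and 2 lower at ZT12. Adipocyte calls were 1 higher at ZT0, and 1 higher and 1 lower at ZT12. The part of these cells in the carrier gene differences was not tested.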

Additional observations from a re-analysis of the deposited data

Results flagged for a closer look

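In 12 of 92 groups of 5 libraries, over 23 genes, the highest or lowest library stood far from the other 4 of its group (its gap to the nearest was over 0.71 of the whole range). Chance alone marks about 1 in 20 such groups. Nr3c1 was at 61.1 CPM in CardioGRKO at ZT0 replicate 5, the others of its group lying from 51.9 to 54.5 CPM. Slc4a1 was at 13.0 CPM in GRflox at ZT12 replicate 4, the others from 0.261 to 0.628. In that library Slc30a1 was also high, at 31.2 CPM beside 26.4 to 27.7. In GRflox at ZT0 replicate 1, Slc30a1 was high at 28.6 CPM (others 21.2 to 23.3) and Slc39a10 low at 14.2 CPM (others 17.4 to 18.6). In GRflox at ZT12 replicate 5, Slc8a2 was low at 1.57 CPM (others 2.32 to 2.62) and Slc9a2 high at 6.27 CPM (others 3.77 to 4.48). Slc9a8 was at 40.1 CPM in GRflox at ZT12 replicate 3 (others 34.1 to 35.5), and Slc39a9 at 28.4 CPM in replicate 2 of that group (others 30.5 to 31.3). Slc12a7 was at 420.0 CPM in CardioGRKO at ZT0 replicate 2 (others 461 to 475), and Slc39a6 at 7.52 CPM in replicate 5 of that group (others 8.67 to 8.91). Slc39a14 was at 86.8 CPM in CardioGRKO at ZT12 replicate 3 (others 63.5 to 68.9).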

How the results depend on the processing

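Of 45 calls of genes of the set, 28 held in every alternative that could test them, 17 were lost in at least 1, and none changed direction. The ZT12 call of Slc8a3 is among the 28, though only 9 alternatives tested it. DESeq2, other size factors and the replicate block lost none, thinning to the shallowest library lost 9, the fit of only the groups compared lost 4 and testing without a filter lost 3. Thinned, the count of all genes called was 1327 between genotypes at ZT0, 1915 at ZT12, 1441 between times in GRflox and 782 in CardioGRKO (2060, 2952, 2423 and 1284 at full depth). Thinning left 6 genes of the set called between times in GRflox in place of 10. DESeq2 called 69 genes in the interaction, where edgeR called 26. Leaving out 1 library gave 5 to 11 genes of the set between times in GRflox, with 5 without GRflox at ZT0 replicate 2 and 6 without GRflox at ZT12 replicate 4. Interaction calls over all genes then ran from 16 to 33, with 16 without CardioGRKO at ZT12 replicate 1 and 17 without GRflox at ZT0 replicates 2 or 4 or GRflox at ZT12 replicate 4. Counts over the set ran from 10 to 13 between genotypes at ZT0, 11 to 14 at ZT12 and 7 to 10 between times in CardioGRKO. With the replicate number as a block, 13, 13, 10, 9 and 0 genes of the set and 2194, 3111, 2513, 1359 and 38 genes in all were called (genotype at ZT0 and ZT12, time in GRflox and CardioGRKO, interaction). Deviations of same-numbered libraries correlated from -0.06 to 0.37 between genotypes at ZT0, 0.06 to 0.37 at ZT12, -0.15 to 0.18 between times in GRflox and -0.43 to 0.19 in CardioGRKO. A library correlated best with its own number in 4, 2, 0 and 0 of 5 cases, which is a hint from the data at ZT0. In no contrast was every pair over 0.1, so the numbers were not taken to pair the libraries. Low read numbers limit Slc8a3, Slc9a3, Slc8a2, Slc24a3 and Slc4a8, and the 13 untested genes.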
